A study of Mus musculus with 6 samples.

Results

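The BCL2 family sets whether a cell keeps or loses the integrity of its mitochondria, and 10 of its genes were followed here in marginal zone (MZ) B cells. They were taken by gene name, from a list of survival and death genes of the family. On the survival side stand Bcl2, Bcl2l1, Mcl1, Bcl2a1b and Bcl2a1d, and on the death side Bcl2l11, Bax, Bak1, Bbc3 and Pmaip1. They are 10 of the 55487 gene IDs in the deposited table, and all 10 passed the filter on low counts that left 13794 genes for testing. RNA had been sequenced in bulk from 6 libraries of MZ B cells, 3 labelled CD55KO and 3 labelled WT. The mice were 14 weeks old, and WT mice were C57BL/6. B cells had first been enriched by negative selection and MZ B cells were then flow-sorted. The labels give neither the design of the CD55 knockout nor its strain background, and they leave unstated if each library is a mouse of its own. P-values therefore measure the spread between libraries, which may be technical.

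MZ B cells sit at the border of the white pulp of the spleen and respond early to blood-borne antigens. CD55 (decay-accelerating factor) protects cells from complement by speeding the decay of its convertases. In the BCL2 family, the survival proteins hold the effectors BAX and BAK in check. BH3-only proteins such as BIM, PUMA and NOXA are induced or released under stress, occupy the groove of the survival proteins through a short helix called BH3, and so free BAX and BAK to permeabilize the outer mitochondrial membrane. Survival of mature B cells is known to depend on this balance, with signals from the B cell receptor and from BAFF acting on several of its genes.

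The codons of the BH3 core are shown first because death proteins occupy the groove of survival proteins through this helix. Survival members were searched for the same letters, and a match in them does not mark the part that binds death proteins. The core was searched in the translated principal transcript of each member as leucine, any 3 residues, glycine or alanine, and aspartate, followed by aspartate, glutamate or glycine. It was found in 7 of the 9 members searched, once in each, and Pmaip1 was not searched. Of 21562 mouse protein-coding genes, 1204 (5.58%) held the same pattern in their longest coding sequence. A match is a description of the letters and not evidence of binding. Each line below gives 36 coding bases from GENCODE M21 (GRCm38), 5′ to 3′ on the coding strand, with the codons of the core in capitals.
Bcl2, chr1:106712575-106712610, minus strand: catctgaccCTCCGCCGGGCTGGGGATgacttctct
Bcl2l1, chr2:152829697-152829732, minus strand: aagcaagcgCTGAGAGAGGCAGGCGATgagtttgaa
Mcl1, chr3:95659427-95659462, plus strand: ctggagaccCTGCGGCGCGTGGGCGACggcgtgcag
Bcl2l11, chr2:128147141-128147176, plus strand: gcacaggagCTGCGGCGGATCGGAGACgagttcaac
Bax, chr7:45465997-45466032, minus strand: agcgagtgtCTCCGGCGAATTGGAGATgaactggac
Bak1, chr17:27022531-27022566, minus strand: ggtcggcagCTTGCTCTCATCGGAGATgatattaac
Bbc3, chr7:16313764-16313799, plus strand: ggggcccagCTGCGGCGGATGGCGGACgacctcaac
Each stretch lies within 1 exon. Bcl2a1b and Bcl2a1d, whose proteins have 172 residues each, gave no match to these letters in this search.

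The Bcl2a1 genes are near-identical copies that encode A1, a survival protein of haematopoietic cells. Their first 60 coding bases are shown because reads from 1 copy can be counted for another. Capitals mark the 6 positions at which the 3 copies are not all alike, 2 of which differ between Bcl2a1b and Bcl2a1d.
Bcl2a1b, chr9:89199360-89199419, plus strand: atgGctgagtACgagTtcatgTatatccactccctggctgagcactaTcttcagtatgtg
Bcl2a1d, chr9:88731660-88731719, minus strand: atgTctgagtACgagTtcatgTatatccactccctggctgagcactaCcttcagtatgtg
Bcl2a1a, chr9:88957051-88957110, plus strand: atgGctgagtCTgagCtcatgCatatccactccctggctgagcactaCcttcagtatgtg
Bcl2a1b and Bcl2a1d were identical at 98.8% of their 516 coding bases, differing at 6. Of the 50-base windows of the Bcl2a1d transcript, 79.5% occurred unchanged in another copy, and of those of Bcl2a1b 57.6%. Values of the separate copies are therefore uncertain, and their sum is given as well.

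Library totals ran from 20056064 counts (WT replicate 1) to 30784031 (WT replicate 2), and between 13330 and 13950 genes had at least 10 counts. Cd55 fell in CD55KO, from 110 to 125 CPM (counts scaled to a common library total) in WT to 6.23 to 8.95 CPM, a log2 fold change of -3.96 ± 0.11 (SE, n = 3 and 3; edgeR quasi-likelihood test with Benjamini-Hochberg adjustment, adjusted p = 3.9e-12). Summed MZ B cell markers (Cr2, Cd1d1, Cd9, S1pr1, Notch2, Dtx1, Mzb1) lay between 3940 and 4361 CPM, all 7 were tested and none was called. WT replicate 1 stood apart on the first principal component, which held 28.8% of the variance. It also had the highest summed erythroid markers (3071 CPM, against 27.3 to 1390 in the others) and cell cycle markers (196 CPM, against 89.8 to 110). Germinal centre markers summed to 9.13 to 19.8 CPM in CD55KO and to 64.8, 19.1 and 48.5 CPM in WT, with 1 of the 7 tested called, Gcsam (lower in CD55KO, edgeR adjusted p = 0.0343). Plasma cell markers summed to 143 to 160 CPM in CD55KO and 173 to 231 CPM in WT. Of the 5 tested 1 was called, Xbp1 (lower in CD55KO, edgeR adjusted p = 0.00471). Xbp1 was at 71.6 to 83.8 CPM in CD55KO and 102 to 129 CPM in WT. Together with Irf4 (49.1 to 64.2 CPM) it made up most of the sum in every library. Macrophage markers summed to at most 10.7 CPM, T cell markers to at most 1.09 CPM and neutrophil markers to at most 0.639 CPM, and the neutrophil genes Ly6g and Elane were at 0 in every library. In bulk RNA, fewer cells of a type and less RNA per cell cannot be told apart. The part of these other cells in the members' values was not tested. A fit with erythroid transcripts is given with Bcl2l1 as a description.

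No member was called between the genotypes. At an adjusted p under 0.05 the edgeR quasi-likelihood test called 0 of the 10 members, where the background was 0.399% of the genes tested (55 of 13794, 19 higher and 36 lower in CD55KO). At an unadjusted p under 0.05 it passed 1 member, Bcl2, where the background was 8.6%. Limma-voom also called 0 of 10, and DESeq2 called 0 of the 9 for which it gave an adjusted p (none for Bbc3). For 2 members, Bcl2 and Bak1, all libraries of 1 genotype lay above all of the other, as they did for 14.1% of genes tested in either direction. Both were higher in CD55KO, where 7.24% of genes tested were higher without overlap. Over 10 members the unadjusted and non-overlap shares amount to about 1 gene each, so the members' counts are near the background. Among the log2 fold changes, 6 members had positive and 4 negative values with a median of 0.07, beside a median of 0.0015 over all genes tested (6955 positive, 6839 negative). The 5 survival members had a median of 0.13 (4 positive, 1 negative) and the 5 death members a median of -0.00095 (2 positive, 3 negative).

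**Figure D1:**
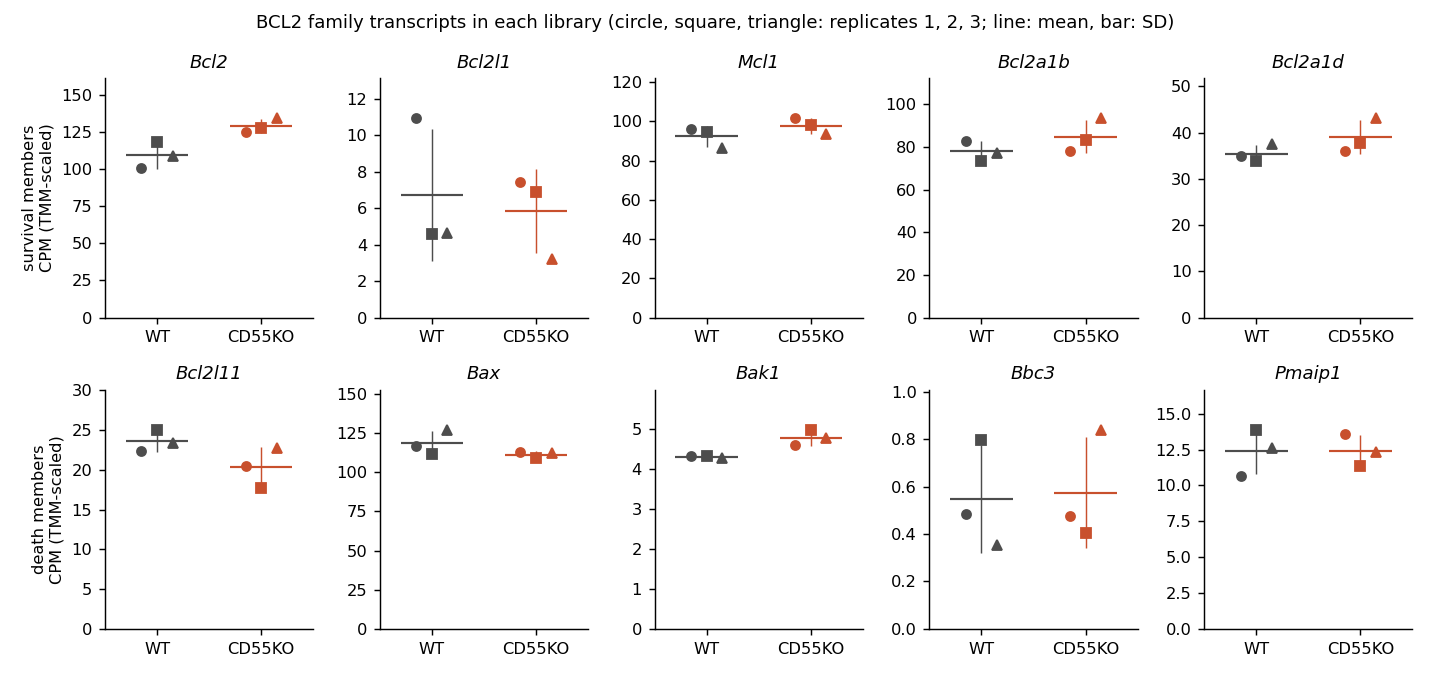
CPM, scaled by TMM, of the 10 members in each library (y axis from 0), with WT in grey and CD55KO in orange, survival members above and death members below. Lines are means and bars SD over 3 libraries. The CD55KO points of Bcl2 (125 to 134 CPM) and of Bak1 (4.58 to 4.98 CPM) lie above all WT points, and the groups overlap for the other 8 members.

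Bcl2 encodes the founding survival protein of the family, which circulating naive lymphocytes depend on. In CD55KO replicates 1 to 3 it measured 125, 128 and 134 CPM, and in WT replicates 1 to 3 it measured 101, 118 and 109 CPM. Every CD55KO library was above every WT library, with the nearest pair at 125 and 118 CPM. The CD55KO mean was 129 ± 4.79 CPM and the WT mean 109 ± 8.87 CPM (SD, n = 3 each). The log2 fold change was 0.24 ± 0.08 (SE), a 1.18-fold higher level with a 95% interval of 1.06 to 1.32. The edgeR quasi-likelihood test gave an unadjusted p of 0.00629, which ranked 291st of 13794 genes, and an adjusted p of 0.298. The difference thus did not pass the threshold after adjustment over all genes. Without WT replicate 1, the lowest of the 6, the log2 fold change was 0.19 ± 0.09 (SE, edgeR adjusted p = 0.650). The gene (ENSMUSG00000057329) spans chr1:106538178-106714274 on the minus strand and is on the same chromosome as Cd55, 23.7 Mb away. Of the 12 tested genes within 5 Mb of Bcl2, edgeR called 0 (1 at an unadjusted p under 0.05) and 2 did not overlap between the genotypes, beside 8.6% and 14.1% of all genes tested. An antisense gene, D630008O14Rik, shares exon bases with Bcl2 and had 44.9 to 80.7 counts per library, against 2074 to 3835 for Bcl2. Libraries were unstranded, and reads in the shared bases cannot be told apart.

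Mcl1 encodes a short-lived survival protein that B cells need from early development onwards. It measured 102, 98.1 and 93.5 CPM in CD55KO and 96.1, 94.5 and 86.3 CPM in WT. The ranges overlapped, with WT replicate 3 the lowest library. The means were 97.7 ± 4.02 and 92.3 ± 5.26 CPM (SD, n = 3 each), and the fold was 1.06 with a 95% interval of 0.952 to 1.18 (edgeR quasi-likelihood, adjusted p = 0.823). Mcl1 (ENSMUSG00000038612) lies at chr3:95658788-95663176 on the plus strand.

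Bcl2a1b measured 78.0, 83.3 and 93.4 CPM in CD55KO and 82.9, 73.6 and 77.2 CPM in WT. Bcl2a1d measured 36.1, 37.9 and 43.1 CPM in CD55KO and 35.0, 33.8 and 37.6 CPM in WT. In both copies CD55KO replicate 3 was the highest library and WT replicate 2 the lowest, and the genotypes overlapped. The means of Bcl2a1b were 84.9 ± 7.86 and 77.9 ± 4.72 CPM and those of Bcl2a1d 39.0 ± 3.64 and 35.4 ± 1.94 CPM (CD55KO and WT, SD, n = 3 each). The folds were 1.09 (95% interval 0.968 to 1.23, edgeR adjusted p = 0.738) and 1.10 (0.961 to 1.26, edgeR adjusted p = 0.742). Without CD55KO replicate 3 the log2 fold changes went from 0.13 to 0.05 for Bcl2a1b and from 0.14 to 0.06 for Bcl2a1d (edgeR adjusted p = 0.9505 and 0.9495). With all Bcl2a1 copies summed into 1 gene, the log2 fold change was 0.13 ± 0.08 (SE, edgeR adjusted p = 0.713). The copies lie on chromosome 9, Bcl2a1b (ENSMUSG00000089929) at chr9:89199209-89207827 on the plus strand and Bcl2a1d (ENSMUSG00000099974) at chr9:88723285-88731914 on the minus strand. The other copies were low: Bcl2a1a had 8.64 to 32.4 counts per library and Bcl2a1c at most 2 counts.

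Bcl2l1 encodes BCL-XL, a survival protein that activated lymphocytes induce and that maturing red blood cell precursors require. It measured 7.44, 6.88 and 3.22 CPM in CD55KO and 10.9, 4.60 and 4.65 CPM in WT. The highest library was WT replicate 1 and the lowest CD55KO replicate 3, so the spread within a genotype (SD 2.29 CPM in CD55KO, 3.64 CPM in WT) exceeded the difference of the means, 5.85 against 6.73 CPM. The log2 fold change was -0.19 ± 0.48 (SE), with a 95% interval of the fold from 0.380 to 2.03 (edgeR quasi-likelihood, adjusted p = 0.969). The sign turned without WT replicate 1, to 0.34, and without CD55KO replicate 3, to 0.11.

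Erythroid transcripts moved with Bcl2l1 across libraries. The sum of Hba-a1, Hbb-bs, Hbb-bt and Alas2 was 1390, 1139 and 27.3 CPM in CD55KO and 3071, 255 and 78.1 CPM in WT. Alas2, the haem synthesis enzyme of red cell precursors, was at 21.7, 18.5 and 0.630 CPM in CD55KO and 44.9, 2.97 and 0.604 CPM in WT. The library highest in Bcl2l1 was also highest in the erythroid sum, and the lowest was lowest in both. The 2 sets of values were in the same order in all libraries, apart from WT replicates 2 and 3, whose Bcl2l1 values nearly tied. All 4 markers were tested and 0 were called between the genotypes by edgeR. With the log2 erythroid sum as a covariate, an alternative added after the data were seen, the Bcl2l1 log2 fold change was -0.14 with an SE of 0.18 in place of 0.48 (edgeR adjusted p = 0.883). The SE was also lower in fits that do not use erythroid transcripts, at 0.23 with a replicate block, 0.29 with no filter on low counts and 0.35 with limma-voom. The erythroid sum was highest in replicate 1 and lowest in replicate 3 of both genotypes, so a replicate block follows it in part. Whether erythroid cells have a part in the Bcl2l1 values was not tested. In the fit with the erythroid covariate Bcl2 was at 0.24 (edgeR adjusted p = 0.246), and 0 of 10 members were called. Bcl2l1 (ENSMUSG00000007659) lies at chr2:152780668-152831728 on the minus strand.

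**Figure D2:**
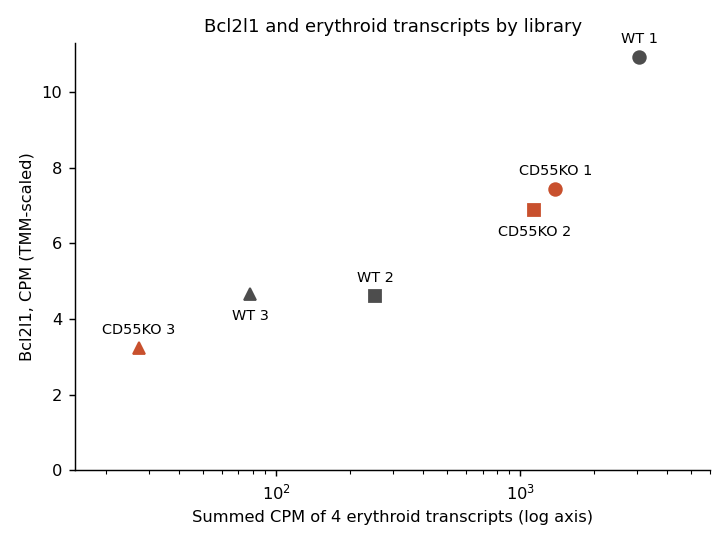
Bcl2l1 (y axis, CPM scaled by TMM) against the summed CPM of Hba-a1, Hbb-bs, Hbb-bt and Alas2 (x axis, log scale), 1 point per library, WT grey and CD55KO orange. WT replicate 1 is at the upper right (3071 and 10.9 CPM) and CD55KO replicate 3 at the lower left (27.3 and 3.22 CPM), with both genotypes spread along the x axis.

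Among the BH3-only members, Bcl2l11 encodes BIM, a main trigger of death in B cells deprived of survival signals. It measured 20.5, 17.6 and 22.8 CPM in CD55KO and 22.3, 25.0 and 23.4 CPM in WT. CD55KO replicates 1 and 2 were below all WT libraries, while CD55KO replicate 3 was above WT replicate 1. The means were 20.3 ± 2.57 and 23.6 ± 1.35 CPM (SD, n = 3 each), and the log2 fold change was -0.22 ± 0.11 (SE), with a fold of 0.860 and a 95% interval of 0.731 to 1.01. The edgeR quasi-likelihood test gave an unadjusted p of 0.0651 and an adjusted p of 0.617. The fold with 1 library left out ran from -0.31 without CD55KO replicate 3 to -0.13 without CD55KO replicate 2, on the log2 scale. Bcl2l11 (ENSMUSG00000027381) lies at chr2:128126038-128162547 on the plus strand.

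Pmaip1 encodes NOXA, a BH3-only protein that binds MCL1 and A1. It measured 13.6, 11.3 and 12.4 CPM in CD55KO and 10.7, 13.9 and 12.6 CPM in WT. WT held both the highest and the lowest library. The fold was 0.999, with a 95% interval of 0.817 to 1.22 (edgeR quasi-likelihood, adjusted p = 0.999). Bbc3 (ENSMUSG00000002083, chr7:16308393-16318205, plus strand) encodes PUMA, which p53 and FOXO factors induce. It had 13, 10 and 24 counts in CD55KO and 10, 25 and 10 counts in WT, or 0.355 to 0.841 CPM. The 95% interval of its fold ran from 0.498 to 2.20 (edgeR adjusted p = 0.994), so differences inside this range cannot be told from none. The parts of low counts and of spread between libraries in this width were not separated.

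Of the effectors, Bax was the more abundant. It measured 113, 109 and 112 CPM in CD55KO and 117, 111 and 127 CPM in WT. WT replicate 3 was the highest library and the groups overlapped at 111 and 113 CPM. The means were 111 ± 2.04 and 119 ± 7.99 CPM (SD, n = 3 each), and the fold was 0.939 with a 95% interval of 0.844 to 1.04 (edgeR adjusted p = 0.804). Bax (ENSMUSG00000003873) lies at chr7:45461697-45466898 on the minus strand.

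Bak1 measured 4.58, 4.98 and 4.76 CPM in CD55KO and 4.32, 4.31 and 4.26 CPM in WT. All CD55KO libraries were above all WT libraries, by small steps. The means were 4.77 ± 0.197 and 4.30 ± 0.0318 CPM (SD, n = 3 each). Only 89.0 to 136 counts per library lay behind these values, and the edgeR fit, which includes the counting error, gave a log2 fold change of 0.15 ± 0.19 (SE), a fold of 1.11 with a 95% interval of 0.842 to 1.46 and an adjusted p of 0.898. Bak1 (ENSMUSG00000057789, chr17:27019810-27029009, minus strand) shares exon bases with Ggnbp1 on the opposite strand. The 2 gene IDs of Ggnbp1 had 72.1 to 194 counts per library each, and together more than Bak1 in every library. Reads in the shared bases cannot be assigned without strand.

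**Figure D3:**
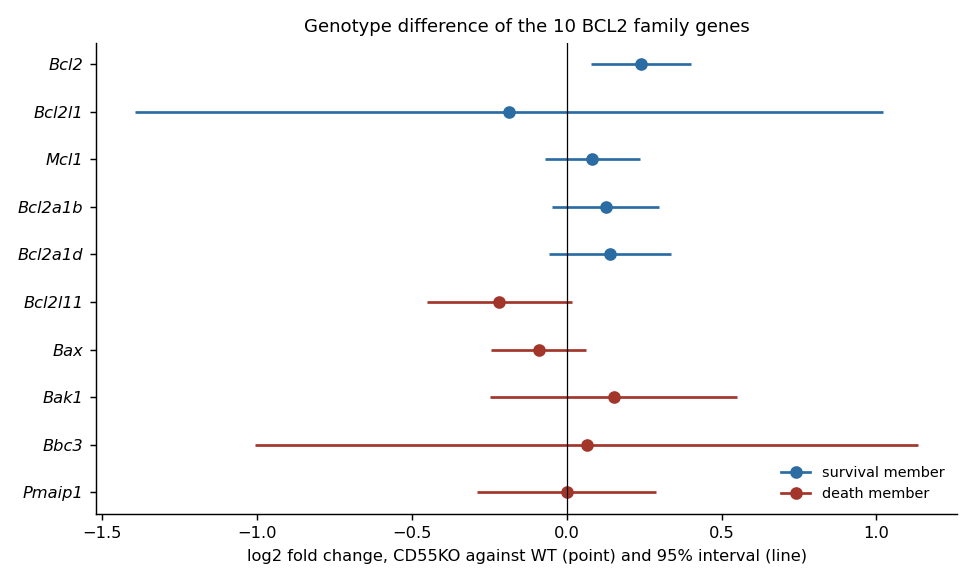
Log2 fold change of each member, CD55KO against WT (x axis), from the edgeR quasi-likelihood fit, with 95% intervals as lines, survival members blue and death members red. The interval of Bcl2 alone lies above 0 (0.08 to 0.40) before adjustment for the genes tested, and those of Bcl2l1 and Bbc3 are the widest.

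Levels of different genes were compared per length, as CPM per kb of exon. In order of the mean over 6 libraries, Bcl2a1b was highest at 99.6 CPM per kb (90.0 to 114), above 95.8% of the genes tested. Bax followed at 72.9 CPM per kb, Bcl2a1d at 43.2, Mcl1 at 27.8 and Bcl2 at 13.0 CPM per kb. Pmaip1 was at 4.54 CPM per kb, Bcl2l11 at 2.73, Bak1 at 1.88, Bcl2l1 at 1.37 and Bbc3 at 0.264 CPM per kb. Neighbours in this order had ranges over libraries that did not overlap, except Bak1 (1.77 to 2.07) and Bcl2l1 (0.703 to 2.38). Bbc3 was above only 8.68% of the genes tested. The order depends on the length used: with the length of the principal transcript, an alternative added after the data were seen, Bax led at 133 CPM per kb. In that order Bcl2l1 at 2.60 also stood above Bak1 at 1.90, and Pmaip1 (3.92 to 5.09) and Bcl2l11 (3.50 to 4.97) overlapped.

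Within each side a few genes made up most of the transcripts. Bcl2a1b and Bcl2a1d together held 77.1% of the summed CPM per kb of the survival members in CD55KO and 77.1% in WT. Bax held 88.3% of that of the death members in CD55KO and 88.7% in WT. The Bax level was 37.5, 33.4 and 36.0 times that of Bak1 in CD55KO and 41.3, 39.5 and 45.6 times in WT, per kb. With principal transcript lengths it was 60.3 to 67.7 in CD55KO and 71.2 to 82.1 in WT. This ratio was lower in every CD55KO library than in every WT library. A change of length scales all libraries alike, so the second version adds no separate evidence on their order. The Bak1 values rest on 89.0 to 136 counts per library, and Bak1 shares exon bases with Ggnbp1. How often ratios of other gene pairs separate the genotypes was not computed.

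The balance of the 2 sides was first taken as the mean log2 CPM of the 5 survival members minus that of the 5 death members, which gives each gene the same weight. It was 2.34, 2.47 and 2.04 in CD55KO and 2.42, 1.95 and 2.17 in WT. The genotypes overlapped: the lowest CD55KO value was below 2 of the 3 WT values. The means were 2.28 ± 0.22 and 2.18 ± 0.24 (SD, n = 3 each), a difference of 0.10, smaller than the spread within either genotype. Leaving out 1 library at a time gave differences from -0.01 (without WT replicate 2) to 0.22 (without WT replicate 1).

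Weighted by abundance, the balance gave non-overlapping values. The ratio of the summed CPM per kb of survival to death members was 2.25, 2.44 and 2.56 in CD55KO and 2.21, 2.11 and 1.95 in WT. Every CD55KO value was above every WT value, with the nearest pair at 2.25 and 2.21. On the log2 scale the means were 1.27 ± 0.09 and 1.06 ± 0.09 (SD, n = 3 each), a difference of 0.21. The summed survival level was 182, 190 and 207 CPM per kb in CD55KO and 184, 171 and 176 in WT, and the summed death level 81.1, 77.7 and 80.9 in CD55KO and 83.0, 81.1 and 90.2 in WT. Each sum alone overlapped between the genotypes. The level of the ratio depends on the lengths and genes used, in 3 alternatives added after the data were seen. With principal transcript lengths the ratio was 1.33, 1.44 and 1.502 in CD55KO and 1.30, 1.24 and 1.14 in WT. Without Bcl2a1b and Bcl2a1d the log2 ratio was negative in every library, at -0.85, -0.81 and -0.92 in CD55KO and -0.999, -0.96 and -1.24 in WT, so that the survival sum lay below the death sum. With the other family genes included it was 0.21, 0.21 and 0.29 in CD55KO and 0.19, 0.05 and -0.07 in WT. CD55KO lay above WT without overlap in each of the 3, by 0.21, 0.21 and 0.18 on the log2 scale. These 3 share most of their genes with the first ratio and are not separate evidence. With equal weight per gene the same changes of genes gave overlapping genotypes. The differences were then 0.07 without Bcl2a1b and Bcl2a1d and 0.18 with the other family genes. The scores have no p here, because the members were chosen with results of these data known, and no member within them was called.

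Ratios between some single members are given as a description, for pairs picked after their values were seen. Bcl2 stood at 5.35, 6.36 and 5.17 times Bcl2l11 in CD55KO and 3.95, 4.15 and 4.07 times in WT, per kb. The means were 5.63 ± 0.64 and 4.06 ± 0.10 (SD, n = 3 each), and the groups did not overlap. Bcl2 to Bax was 0.191, 0.202 and 0.206 in CD55KO and 0.148, 0.183 and 0.147 in WT, also without overlap. Bcl2 alone did not overlap and is the numerator of both ratios, so they are not separate evidence. Bcl2 and Bcl2l11 were also the members with the smallest unadjusted p, in opposite directions. How often ratios of other gene pairs separate the genotypes was not computed. Mcl1 to Bcl2l11 overlapped, at 11.7, 13.1 and 9.65 in CD55KO and 10.1, 8.86 and 8.66 in WT. Bcl2a1b to Bcl2a1d was 2.28 to 2.32 in CD55KO and 2.17 to 2.50 in WT.

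**Figure D4:**
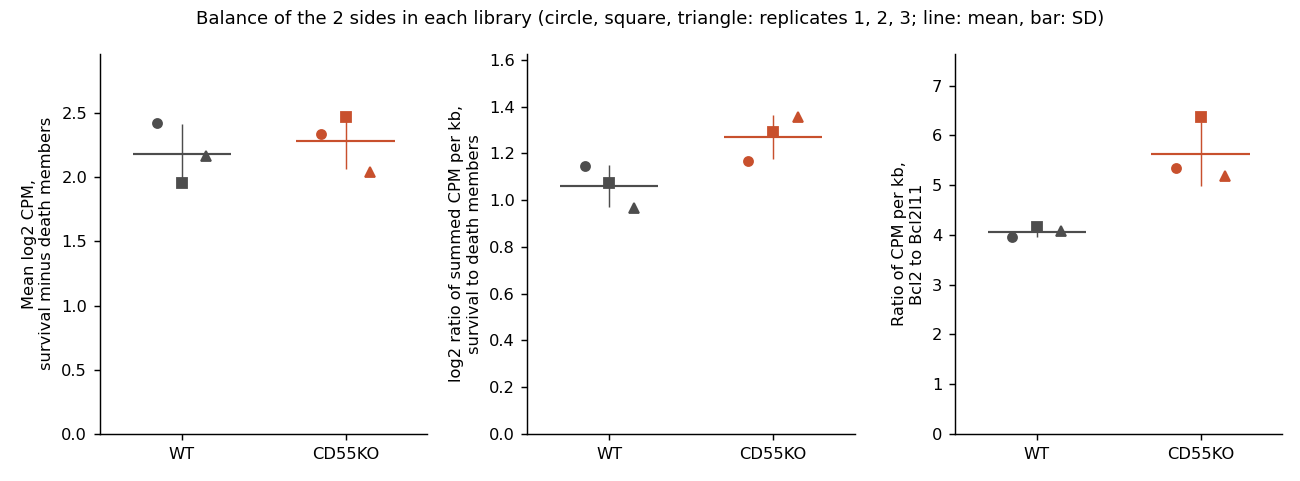
Balance of the survival and death members in each library, WT grey and CD55KO orange, with means (lines) and SD (bars) over 3 libraries: mean log2 CPM difference (left), log2 ratio of summed CPM per kb (middle) and ratio of Bcl2 to Bcl2l11 per kb (right). The pair on the right was picked after its values were seen. The genotypes overlap on the left (1.95 to 2.47 over all libraries), and CD55KO lies above WT in the middle (lowest 1.17, highest WT 1.15) and on the right (lowest 5.17, highest WT 4.15).

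The genes whose log2 CPM followed a member most closely were sought by Pearson r over the 6 libraries among 8533 genes with a mean of at least 5 CPM, as a description with no test. For Bcl2 they were Mon2 (r = 0.989), Aim2 (r = 0.988) and Sbds (r = 0.987), with 28 genes above 0.95. For Mcl1 they were Zc3h12d (r = 0.992), Map4k4 (r = 0.988) and Nbn (r = 0.986), with 28 genes above 0.95. For Bcl2l11 they were Fgd6 (r = 0.995), Phtf2 (r = 0.983) and Mknk1 (r = 0.977), with 20 genes above 0.95. With 6 points that share library, depth and genotype, many genes reach such values. Between the members themselves, Bcl2a1b and Bcl2a1d had the highest r (0.848). Reads from 1 of these near-identical copies can be counted for the other, and the part of this in the r was not tested.

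The rest of the pathway was read from lists of 72 other genes, of which 64 were tested. None was called by edgeR in either direction (0 higher, 0 lower). At an unadjusted p under 0.05, 4 passed (1 higher, 3 lower), where the background of 8.6% is higher than their share. In CD55KO 5 were higher and 8 lower without overlap, where the background of 14.1% in either direction is lower than their share. These differences in share were not tested. The median log2 fold change was -0.0090 (27 positive, 37 negative). Without the filter on low counts 1 of them was called, Ccng1, as given below. Nearest to the members are the other family genes. Bid, the BH3-only protein cut by caspase-8, was the most abundant of them at 258 ± 22.7 CPM in CD55KO and 259 ± 29.2 CPM in WT. Bmf, a BH3-only gene like Bcl2l11, was at 3.27 ± 0.498 and 4.49 ± 1.26 CPM (log2 fold change -0.45 ± 0.25, edgeR adjusted p = 0.661). Bad was at 30.3 ± 1.46 and 33.9 ± 3.15 CPM (edgeR adjusted p = 0.694). The survival gene Bcl2l2, encoding BCL-W, was at 2.82 ± 0.124 and 2.93 ± 0.109 CPM (edgeR adjusted p = 0.982), and Bcl2a1a had an adjusted p of 0.914 in the same edgeR fit. Hrk and Bcl2l10 were at 0 in all libraries, which allows up to 0.0958 to 0.146 CPM (3 counts, counting error only), and Bik and Bok had at most 2 counts in any library. Of the 7 distant relatives, Bnip3l, a receptor for the removal of mitochondria, was at 139 ± 0.786 and 130 ± 2.87 CPM (edgeR adjusted p = 0.755), and Bcl2l14 had an adjusted p of 0.759.

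Genes that act on the members' expression or stability came next. Of 14 upstream regulators, 0 were called and 2 passed an unadjusted p under 0.05, beside 8.6% of all genes tested. Nfkb2, a subunit of the alternative NF-κB pathway downstream of BAFF, averaged 92.2 ± 9.82 CPM in CD55KO against 111 ± 11.5 CPM in WT (log2 fold change -0.26 ± 0.09, edgeR adjusted p = 0.357). Foxo3, a factor that can induce Bcl2l11 and Bbc3, was at 37.6 ± 1.22 and 32.7 ± 2.21 CPM (0.20 ± 0.09, edgeR adjusted p = 0.544). In the p53 list 2 of 9 tested genes had positive and 7 negative values. Ccng1, a p53 target that encodes cyclin G1, was at 59.0, 54.4 and 68.4 CPM in CD55KO and 73.7, 79.5 and 70.6 CPM in WT, with no overlap. Its log2 fold change was -0.30 ± 0.09 (SE, edgeR adjusted p = 0.247), and with no filter on low counts its adjusted p was 0.0410. Sesn2, a stress-induced p53 target, was at 11.2 ± 0.314 and 12.8 ± 0.450 CPM (edgeR adjusted p = 0.733). Of the 4 tested genes of MCL1 turnover all had positive values, with the deubiquitinase Usp9x at an edgeR adjusted p of 0.772 and the ubiquitin ligase Huwe1 at 0.867.

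Downstream of the members, 0 of the 8 tested apoptosome and caspase genes were called. Casp6, an executioner caspase, was at 84.5, 82.3 and 81.4 CPM in CD55KO against 77.5, 73.0 and 73.9 CPM in WT, higher without overlap (log2 fold change 0.15 ± 0.07, edgeR adjusted p = 0.589). Casp9, the initiator caspase of the apoptosome, was at 42.2 ± 2.86 and 46.1 ± 2.82 CPM (edgeR adjusted p = 0.744). Among 7 inhibitors of apoptosis and their antagonists, Birc2, encoding cIAP1, was at 50.9 ± 2.16 and 55.1 ± 1.43 CPM (edgeR adjusted p = 0.748). Birc5, encoding survivin, which dividing cells express, was at 8.57 ± 1.72 and 12.7 ± 6.38 CPM (edgeR adjusted p = 0.773), and its highest library was WT replicate 1 at 20.1 CPM, the library highest in cell cycle markers. In the death receptor pathway, Tradd, an adaptor of TNF receptor 1, was at 81.0 ± 3.72 and 91.7 ± 1.86 CPM, lower without overlap (log2 fold change -0.18 ± 0.07, edgeR adjusted p = 0.459), and Tnfrsf10b had an adjusted p of 0.833. Of the 4 mitochondrial partners, Mtch2, a docking site for BID, had an edgeR adjusted p of 0.798 and Vdac1 of 0.821.

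**Figure D5:**
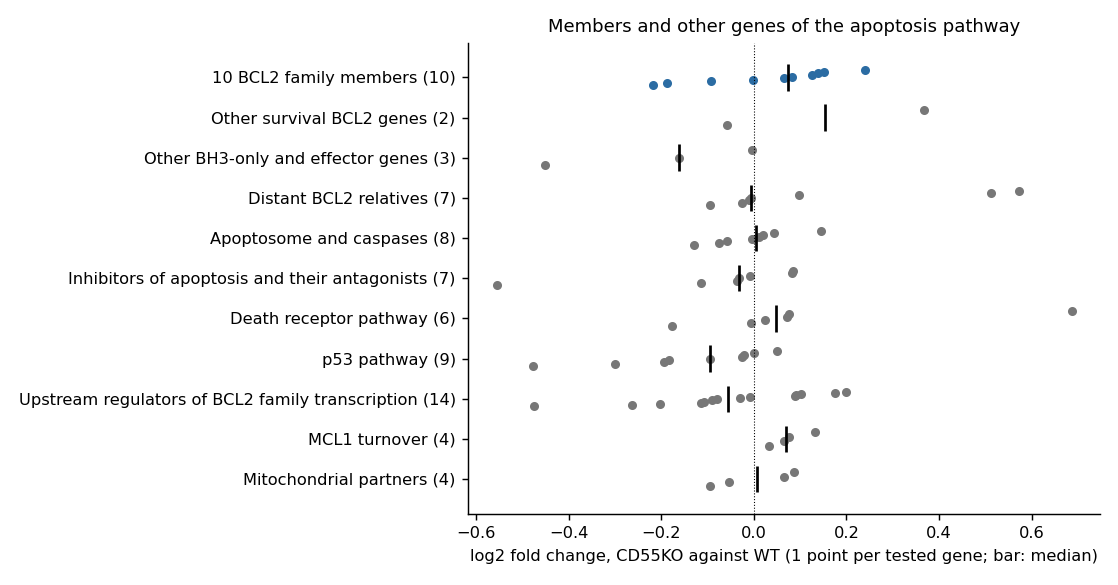
Log2 fold change, CD55KO against WT (x axis), of every tested gene of the 10 members (blue) and of 10 lists of other apoptosis genes (grey), 1 point per gene, with the number tested in brackets and bars at the medians. The members' median (0.07) lies near those of the lists, which scatter on both sides of 0, and none of the genes shown passed the adjusted threshold.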

How the data were processed

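The deposited values are estimated counts per gene (expected counts, not scaled to a common total). In each library 30.9 to 31.9% of the nonzero values were not whole (tolerance 0.005). Per the submitters' processing notes, the authors used DRAGEN, edgeR and limma, with no versions. The sources used here name neither build nor annotation. Positions and exon lengths came from GENCODE M21 (GRCm38), matched by gene ID (99.4% found). Of 55774 rows, 287 repeated rows of 168 gene IDs, identical in value, were removed. Counts were rounded.

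The genotype test was run in edgeR 4.0.16 (R 4.3.3): filterByExpr (minimum count 10, minimum total 15, 13794 genes kept), TMM, robust quasi-likelihood F-test, genotype only, Benjamini-Hochberg adjustment over all genes, threshold 0.05. DESeq2 1.42.0, limma-voom 3.58.1, other filters and scalings, a replicate block and leaving out each library were alternatives. CPM are TMM-scaled. Log2 CPM used a prior count of 2. No replicates were duplicates: between pairs, chi-square divided by its degrees of freedom was 14.3 to 36.6. The SE of an edgeR fit was derived as the absolute log2 fold change divided by the square root of the F statistic. The 95% intervals were built from that SE with the t distribution. Intervals and floors cover counting error and, for fits, spread between libraries.

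Members and lists were chosen with earlier results of these data known. All members were named, and from each list the 2 genes with the smallest p, except where more passed the threshold. Bid, Bik, Bok, Hrk, Bcl2l10 and Bcl2a1c were named after their values were seen.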

Additional observations from a re-analysis of the deposited data

How the results depend on the processing

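In each alternative run and with each library left out, 0 members were called (Bbc3 did not pass the stricter filter and had no adjusted p in DESeq2). Bcl2 stayed positive, at 0.23 to 0.24 (log2) over 10 alternatives and 0.19 to 0.30 with a library left out, lowest adjusted p 0.225. Pmaip1 changed sign with a replicate block (0.0031), with a stricter filter of 50 counts in 3 libraries (0.00023) and with libraries left out (-0.0928 to 0.0904). Bcl2l1 ran from -0.40 to 0.34 and Bbc3 from -0.32 to 0.47 with a library left out. The balance score ran from -0.01 to 0.22. Over all genes, 19 higher and 36 lower became 60 and 78 with the DESeq2 Wald test and 104 and 128 without the filter on low counts, where 1 listed pathway gene, Ccng1, was lower. The cause was not tested. With a library left out, 12 to 20 were higher and 24 to 35 lower, the 12 without WT replicate 3.

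Replicate numbers were not taken to pair the libraries: deviations of same-numbered libraries correlated at 0.07, -0.12 and 0.17. With the replicate block 21 genes were higher and 43 lower, and 0 members were called. Size factors and library totals moved the median of all genes by under 0.01. Low counts limit Bbc3 (10 to 25 counts) and Bak1, beside the spread between libraries.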
